A study of Sus scrofa with 8 samples.

Results

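The members described here were 565 circular RNAs (circRNAs) of porcine liver, out of 6366 listed, or 8.88%. They were selected on measured values and on length: a circRNA was included when its value was above 0 in at most 2 of the 4 RNA-seq libraries and when its genomic span, the end minus the start of its deposited position, was under 1000 bases. The libraries came from rRNA-depleted liver RNA of healthy female Yanan pigs, 2 young sows aged 180 days (young livers, YL) and 2 old sows aged 8 years (old livers, OL). Each liver gave a single library, the labels name no agent, allele or sort, and the labels set the groups apart by age. Per the study's discussion, the young sows had never farrowed, whereas the old sows had farrowed for years and were at the end of their productive life. Age and reproductive history therefore cannot be told apart. Each library is named by its age group and the replicate number of its label. The comparison was made to describe how these circRNAs were detected, and at which level, at either age.

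A circRNA forms when the spliceosome joins a downstream donor splice site to an upstream acceptor splice site of the same transcript, a reaction called back-splicing. The closed ring has no free end for exonucleases to attack, and it is recognised in RNA-seq data only by reads that cross the back-splice junction. A short genomic span leaves room for 1 exon or for a few closely spaced ones, whereas a long span can enclose many exons and introns. Because a circRNA is known only through its junction reads, a circRNA at the lowest read counts can be listed in a library or missing from it by a difference of very few reads.

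The span of the 565 members ran from 152 to 999 bases, with a median of 596 bases and quartiles of 398 and 773 bases. The shortest were circRNA001371, circRNA006723 and circRNA020296 with 152, 153 and 154 bases. The longest were circRNA005758 and circRNA015093 with 999 bases and circRNA004481 with 996 bases. The circRNAs nearest to the limit on its other side were circRNA006769, circRNA012833 and circRNA005357 with 1001, 1003 and 1007 bases. Values on either side of the limit were alike: circRNA005758 had a value of 0.449 from 3 junction reads in old replicate 2, and circRNA005357 a value of 0.429 from 3 junction reads in old replicate 1. A further 75 circRNAs under 1000 bases were found in at least 3 livers, with a median span of 578 bases. Their mean values over the 4 libraries started at 0.312 (circRNA012736), while the members ended at 3.30 (circRNA002054), so the ranges of both sets overlapped. The medians of these means lay apart, at 0.143 for the members and 2.27 for the 75. By the rule, the mean of a member includes a 0 from at least 2 libraries. None of the circRNAs that the text of the study names was a member.

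The deposited circRNA value was a whole number of junction reads, at least 2, times 1 step per library. The listed junction reads summed to 23358 and 23614 for young replicates 1 and 2 and to 20503 and 38775 for old replicates 1 and 2. The same libraries held 51494798, 52207649, 28324675 and 31630060 reads on listed mRNAs and lncRNAs, so the old livers had fewer of those reads, while the junction reads were fewest in old replicate 1 and most in old replicate 2. Intervals and limits given below cover counting error only, since reads copied by PCR are not independent molecules. Of 10 hepatocyte markers, 9 were found by symbol, none of them at 0 in any library, and their summed level lay between 34213 and 57457 CPM (counts per M reads).

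More of the short-span circRNAs were found in the old livers. Young replicate 1 had 65 members, young replicate 2 had 40, old replicate 1 had 237 and old replicate 2 had 341. The means were 52.5 ± 17.7 (SD, n = 2) in the young livers and 289 ± 73.5 (SD, n = 2) in the old livers, a ratio of 5.50. Detection is the measure that chose the members, so these counts are a description, and the old livers also listed more circRNAs of any kind, 2712 and 4219 against 1348 and 834. Where an exact two-sided permutation test over the 4 libraries is given below, 0.333 is the smallest p that 2 against 2 allows, so this exact test cannot pass a threshold of 0.05 here. The same ratio was 4.35 for the 5133 longer circRNAs found in at most 2 livers, 1.40 for the 75 short-span circRNAs found in at least 3 livers and 3.18 over all listed circRNAs. Marker levels of some cell types differed between the young and the old livers, and those of others overlapped. The summed level of hepatocyte markers was 49957 and 57457 CPM in YL and 34213 and 41747 CPM in OL, whereas that of 4 found of 7 macrophage markers was 204 and 226 CPM against 290 and 284 CPM, with none of them at 0. Of the 9 hepatocyte markers found, 4 were lower in both old livers than in either young liver and 5 overlapped. Of the 4 macrophage markers 3 were higher and 1 overlapped. The share of all mRNAs that separated the ages in this way was not counted, so such counts, here and below, are a description only. By order alone, 2 against 2 values separate in either direction with a probability of 0.333. ALB was the largest part of the hepatocyte sum in each library, while FGB and APOA1 were highest in old replicate 1, at 10375 and 1898 CPM. The summed level of 4 found of 7 erythroid markers was 622 and 429 CPM in YL and 308 and 407 CPM in OL, with 1 of them, HBM, at 0 in young replicate 2. Of 5 endothelial markers only 2 were found, and they went different ways: PECAM1 was at 10.5 and 8.92 CPM against 23.8 and 13.8 CPM, and KDR at 10.6 and 9.87 CPM against 2.26 and 10.3 CPM. The 4 stellate cell and fibroblast markers and the 2 skeletal muscle markers found overlapped between the ages. Of 4 B and plasma cell markers found, 1 was lower in the old livers and 3 overlapped. Of 5 T and NK cell entries, 3 were higher, 1 was lower and 1 overlapped. Among the 3, an entry of GZMA was near the floor, at 0 in both young livers and 0.065 and 0.084 CPM in OL. The lower entry was also of GZMA, at 3.31 and 3.33 CPM in YL and 2.08 and 1.34 CPM in OL. Of 2 cholangiocyte markers found, 1 was higher and 1 overlapped. In bulk tissue, fewer cells of a type and less RNA per cell cannot be told apart. The part of these markers in the circRNA result was not tested.

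**Figure D1:**
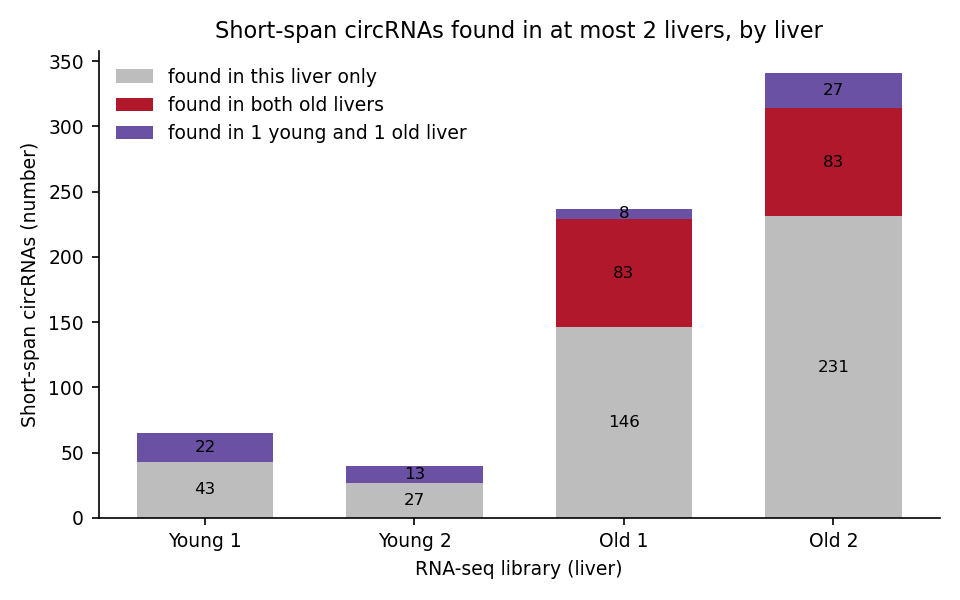
Number of short-span circRNAs found in each of the 4 livers (y axis, number; x axis, library), divided by whether they were found in that liver only, in both old livers or in 1 young and 1 old liver. Young 1 and Young 2 hold 65 and 40 members, Old 1 and Old 2 hold 237 and 341, and 83 members are shared by the old livers.

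The share of members among the circRNAs of a library is a description too, since the rule used detection. They made up 4.82% (95% Wilson interval 3.80 to 6.10) of the 1348 circRNAs of young replicate 1 and 4.80% (3.54 to 6.47) of the 834 circRNAs of young replicate 2. In old replicate 1 they were 8.74% (7.73 to 9.86) of 2712 circRNAs, and in old replicate 2 they were 8.08% (7.30 to 8.94) of 4219. The means differed by 3.60 percentage points, and each interval covers counting error within its library, not the spread between animals. When only values of at least 1 counted, the shares overlapped between the ages, at 3.65% and 4.49% in YL and 4.42% and 4.58% in OL. With a span limit of 500 bases the means differed by 0.877 percentage points, and with 2000 bases by 6.72. Among the circRNAs of a library under 1000 bases, 52%, 46.5%, 76.2% and 82.2% were found in at most 2 livers, in the order young replicates 1 and 2 and old replicates 1 and 2. Among the longer ones these shares were 61.2%, 55.2%, 76.2% and 84.7%, and they were above those of the short spans in 3 of the 4 libraries. Detection chose the members, so these shares are given as a description. Counted by reads instead, members held 2.57% and 2.35% of the junction reads in YL and 4.75% and 4.12% of those in OL. Scaled like CPM to the reads on listed mRNAs and lncRNAs, this came to 11.7 and 10.6 member junction reads in YL and 34.4 and 50.5 in OL. The junction reads of all listed circRNAs also rose on this scale, from 454 and 452 in YL to 724 and 1226 in OL.

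Most members were seen in a single animal. Of the 565, 447 (79.1%) were found in 1 liver. Young replicates 1 and 2 had 43 and 27 of these, and old replicates 1 and 2 had 146 and 231. The remaining 118 were found in 2 livers, of which 83 were in both old livers, 35 in a young and an old liver and 0 in both young livers. The 83 members in both old livers were 14.7% of all members. In comparison, 12.2% of all listed circRNAs were above 0 in both old livers and neither young liver, and 13.5% of the longer circRNAs found in at most 2 livers had that pattern. The 83 made up 35.0% of the members in old replicate 1 and 24.3% of those in old replicate 2. For both young livers and neither old liver, the share was 0.251% over all listed circRNAs. Among the 5133 longer circRNAs found in at most 2 livers it was 0.312%, or 16. If members are taken as independent, a count of 0 of 565 allows a share of up to 0.531%. Members come from the same 2 young libraries and were chosen by detection, so no difference from the background is read from this count. In all, 460 members (81.4%) were found only in old livers and 70 (12.4%) only in young livers. These shares were 77.7% and 15.1% among the longer circRNAs found in at most 2 livers.

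The members found had a higher median value in the young livers, as did listed circRNAs in general. The median value of the members found was 1.32 and 2.13 in young replicates 1 and 2, and 0.429 and 0.449 in old replicates 1 and 2. The old livers were lower by 1.93 on the log2 scale of the median. The median over all listed circRNAs was 1.89 and 3.33 in YL and 0.429 and 0.599 in OL, and that of the longer circRNAs found in at most 2 livers was 1.51 and 2.96 in YL and 0.429 and 0.449 in OL. When junction reads were scaled to the listed mRNA and lncRNA reads, a choice made after seeing the data, the difference was -0.79. In junction reads the medians were 7 and 11.5 in the young livers and 3 in each old liver. The lowest value that a library can hold differed as well, at 0.377 and 0.370 in YL and 0.286 and 0.299 in OL. Members resting on exactly 2 reads, the fewest that were listed, were 4 of 65 (6.15%) and 1 of 40 (2.50%) in the young livers, against 107 of 237 (45.1%) and 108 of 341 (31.7%) in the old livers. The same share over all listed circRNAs was 5.79% and 2.40% in YL and 36.0% and 28.6% in OL.

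The surplus in the old livers lay among circRNAs with few reads. The next limits on reads were chosen after seeing the data. With at least 5 junction reads, the libraries had 45, 35, 60 and 107 members in the order young replicate 1, young replicate 2, old replicate 1 and old replicate 2, a ratio of 2.09. With at least 10 reads they had 23, 26, 14 and 24, and the ratio of 0.776 was below 1. With at least 20 reads they had 5, 10, 4 and 8. At the upper end the age groups overlapped, and the counts were small. Over all listed circRNAs, 1106, 774, 917 and 1776 had at least 5 reads, in the same order of libraries. With at least 10 reads these were 705, 670, 388 and 825, so the overlap at 10 reads was not particular to the members. A value of at least 1 instead of a number of reads left 37, 34, 26 and 55 members, a ratio of 1.14 with overlapping ages. At the lowest value that all 4 libraries could show, the ratio was 3.49. Every library was also brought by calculation to the number of junction reads of old replicate 1. The expected number of members with at least 2 reads was then 63.7 and 39.6 in YL and 237 and 207 in OL. The ratio was 4.30. The members stayed those chosen at full depth, so this ratio rests on the values that the rule used and is a description only. The same calculation was not made over all listed circRNAs.

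**Figure D2:**
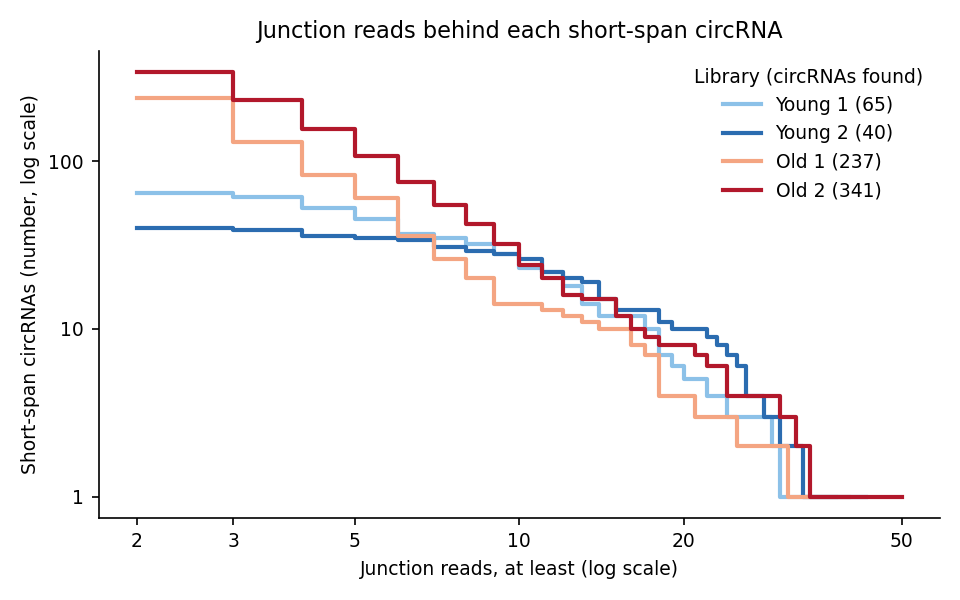
Number of short-span circRNAs (y axis, log scale) with at least the number of junction reads on the x axis (log scale), with 1 line per library. The lines of the old livers start at 237 and 341 members with 2 reads and fall among those of the young livers by 10 reads, where the 4 libraries hold between 14 and 26 members.

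Position within the span limit was not used to choose the members. The median span was 559 and 518 bases in YL and 635 and 580 bases in OL, so that the means differed by 69 bases without overlap (exact permutation p = 0.333, the smallest possible). With a limit of 2000 bases in place of 1000, the difference changed sign to -37.5 bases. By bins of 200 bases, the members under 200 bases were closer in number between the ages, with 8 and 3 in YL and 10 and 11 in OL, a ratio of 1.91. From 200 bases to under 400 the ratio of old to young was 4.96, from 400 to under 600 it was 5.52 and from 600 bases to under 800 it was 5.06. Between 800 and 999 bases there were 9 and 4 members in YL and 61 and 76 in OL, a ratio of 10.5. The bins at either end held few members of the young livers, and the differences between bins were not tested.

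**Figure D3:**
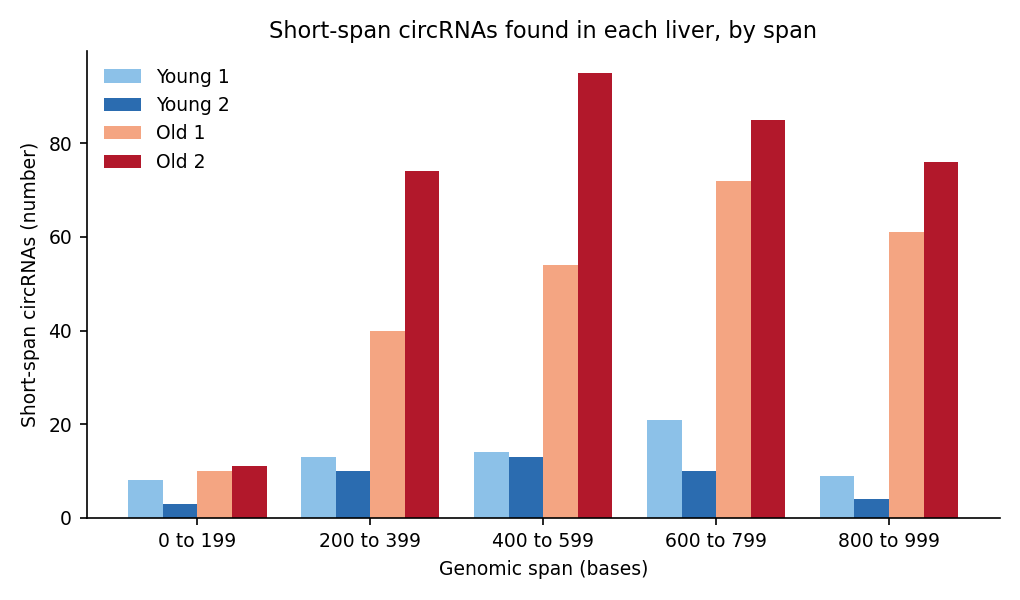
Number of short-span circRNAs found in each liver (y axis, number) by bins of genomic span (x axis, bases), with 1 bar per library. Under 200 bases the libraries hold 8, 3, 10 and 11 members, and between 800 and 999 bases they hold 9, 4, 61 and 76.

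Among members found in both old livers, circRNA002054 (Sscrofa10.2, chromosome 6, 50127661 to 50128210, minus strand) had the highest level. It was at 0 in both young livers and had values of 5.73 and 7.48 in old replicates 1 and 2, from 40 and 50 junction reads. The 0 follows from the choice of this pattern, and a circRNA with fewer than 2 reads in a library was not listed there. Set against 3 reads in each young library, its mean of 6.60 ± 1.24 (SD, n = 2) in the old livers was 11.8-fold higher. This fold takes no account of error in the old mean and is a description only. Next was circRNA006948 (chromosome 3, 99569225 to 99570048, minus strand), with 0 in YL and 3.44 and 4.34 in OL, from 24 and 29 reads. Set against the same 3 reads, its mean in the old livers was 6.93-fold higher. The third, circRNA020617, lies on the unplaced scaffold JH118898.1 (133706 to 134020, plus strand). It had values of 4.29 and 2.99 in the old livers, from 30 and 20 reads, with a mean 6.50-fold above 3 reads in each young library. These 3 stood at the top of their group, and the 83 members found in both old livers had a median of 5 reads in either old library. Only 28 of the 83 had at least 5 reads in both libraries, and 8 had at least 10 in both.

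Among the 35 members found in a young and an old liver, circRNA011180 (chromosome 13, 82442075 to 82442849, plus strand) had the highest mean. It had a value of 5.47 from 29 reads in young replicate 1 and of 4.64 from 31 reads in old replicate 2, and 0 in the other two livers. circRNA001246 (chromosome 7, 65184010 to 65184904, plus strand) had 7.17 from 38 reads in young replicate 1 and 1.05 from 7 reads in old replicate 2. circRNA011411 (chromosome 13, 133900678 to 133901475, plus strand) had 5.28 from 28 reads and 2.10 from 14 reads in the same libraries. All 3 were therefore highest in young replicate 1 and absent from the other young liver. Over the 35, the value was higher in the young liver for 33 and in the old liver for 2, with medians of 1.67 and 0.449. By reads, 30 had more in the young liver, 4 had more in the old liver and 1 had equal numbers, with medians of 9 and 3 reads. Over all listed circRNAs, the median was 10 and 18 reads in YL and 3 and 4 reads in OL.

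Members found in a single liver reached higher levels when that liver was young. In young replicate 2, circRNA012260 (chromosome 2, 9629378 to 9630077, minus strand) had a value of 7.97 from 43 reads, and circRNA000165 (chromosome 5, 23315460 to 23315851, minus strand) had 4.63 from 25 reads, a value it shared with the longer circRNA014400. In young replicate 1, the highest were circRNA009412 (chromosome 14, 78977381 to 78978036, minus strand) with 3.96 from 21 reads and circRNA010460 (chromosome 10, 54059517 to 54060333, plus strand) with 3.58 from 19 reads. In old replicate 2, circRNA005455 (chromosome 4, 103384378 to 103384842, plus strand) had 2.39 from 16 reads and circRNA012579 (chromosome 2, 73695860 to 73696503, minus strand) had 1.80 from 12 reads. In old replicate 1, circRNA015886 (chromosome 12, 2078865 to 2079591, minus strand) had 1.57 from 11 reads and circRNA020445, described below, had 1.43 from 10 reads. Each of these was listed at 0 in the other library of its own age group, so no difference between ages can be read from it. Being found in a second liver went with more reads in the old livers. The median was 2 and 3 reads for members found in 1 old liver only, and 4 and 4.5 reads for members of the same libraries found in 2 livers. In the young livers the medians were 7 and 11 reads for members in 1 liver and 7 and 12 for members in 2.

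**Figure D4:**
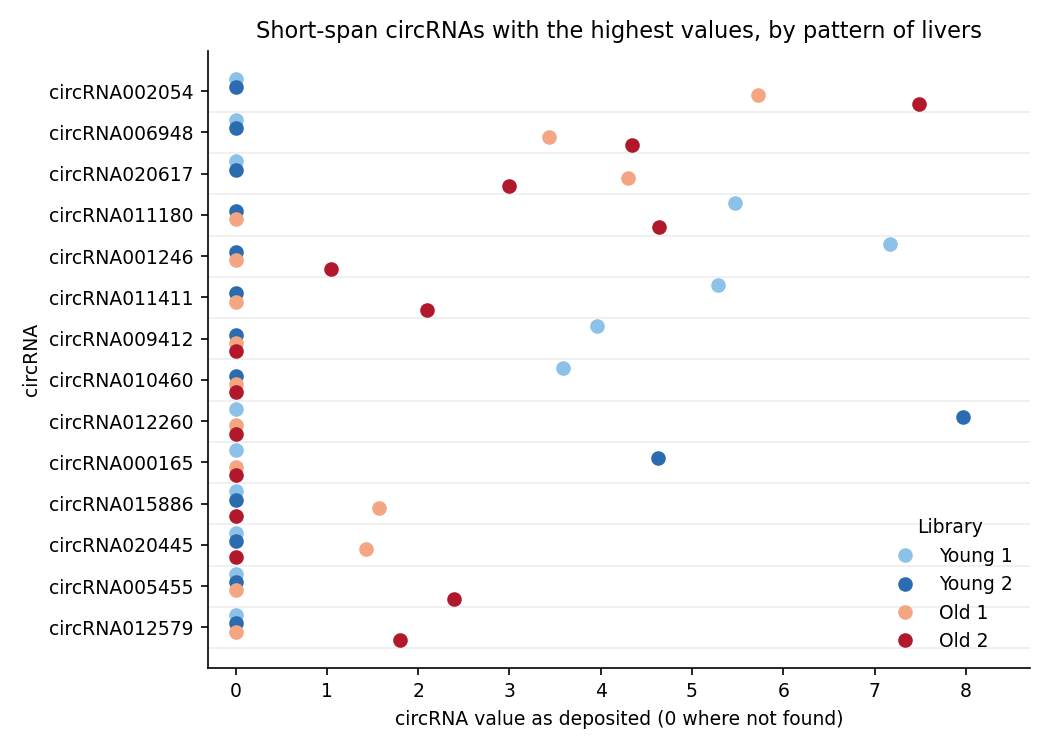
Deposited value (x axis, 0 where a circRNA was not found) of the 14 short-span circRNAs with the highest values in each pattern of livers (y axis), with 1 point per library. The values of circRNA002054 are 5.73 and 7.48 in the old livers, and the highest point is circRNA012260 with 7.97 in Young 2.

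The level of single circRNAs was compared between ages with limma on log2(value + 0.286), over the 1866 circRNAs above 0 in at least 2 libraries. In the study, circRNAs were called with edgeR, and fewer were called in either direction than in the limma fit below. The limma calls are therefore not equivalent to those of the study, although the thresholds are the ones it used for circRNAs. A call was an unadjusted p-value under 0.05 with a log2 fold change beyond 1 in either direction. By this rule 36% of the tested circRNAs were called higher and 2.41% were called lower in old livers, and the median log2 fold change over all of them was 1.02. Only the 118 members found in exactly 2 livers could be tested, and the choice of members had fixed their patterns. Of these, 73 were called higher and 0 lower. All 73 belonged to the 83 found in both old livers, whose log2 fold changes ran from 1.02 to 4.58, and none of the 35 found at both ages was called in either direction. The calls thus restate the pattern of detection. With Benjamini-Hochberg adjustment in limma no circRNA passed 0.05 in this fit, where the smallest adjusted p was 0.0900, which was that of circRNA002054 (log2 fold change 4.58, standard error 0.32) among others. This depended on the settings: with a pseudocount of 0.1, 589 circRNAs passed, 63 of them members (smallest limma adjusted p 0.0419), and with a trend in the prior variance 329 passed, 35 of them members (0.00258). With reads scaled to the listed mRNA and lncRNA reads, chosen after seeing the data, 251 passed, 28 of them members (0.0499). With a pseudocount of 1, 17 of the 118 members were called higher, beside 177 of all 1866 tested circRNAs. Leaving out a library leaves 1 library in an age group, so calls from those fits are not given. The median log2 fold change over all tested circRNAs was then 1.48 and 1.18 without young replicates 1 and 2. It was 0.43 and -0.18 without old replicates 1 and 2. Only 27 members without old replicate 1, and 8 without old replicate 2, were above 0 in at least 2 libraries. None of the 83 was among them.

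Fewer members than short-span circRNAs found in more livers had an end at a position that another circRNA also used. An end counted as shared when its coordinate was also the start or end of another listed circRNA. This held for 172 of 565 members (30.4%), 42 of the 75 short-span circRNAs found in at least 3 livers (56.0%) and 2658 of the 5133 longer circRNAs found in at most 2 livers (51.8%). Within libraries, the share among members was 30.8% and 20% in YL and 36.7% and 33.1% in OL. Among the short-span circRNAs found in at least 3 livers, it was 56.7%, 67.4%, 55.4% and 55.4% in the same order. Members were lower in each of the 4 libraries, by a mean of 28.6 percentage points (exact sign-flip permutation p = 0.125, the smallest that 4 libraries allow). The comparison set had 60, 46, 74 and 74 of its 75 circRNAs in these libraries, so its shares largely count the same circRNAs again. The 4 differences are therefore not independent, and this p is a description only. Likewise, 183 members (32.4%) lay within another listed circRNA of the same strand, against 42 (56.0%) of the short-span circRNAs found in at least 3 livers.

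**Figure D5:**
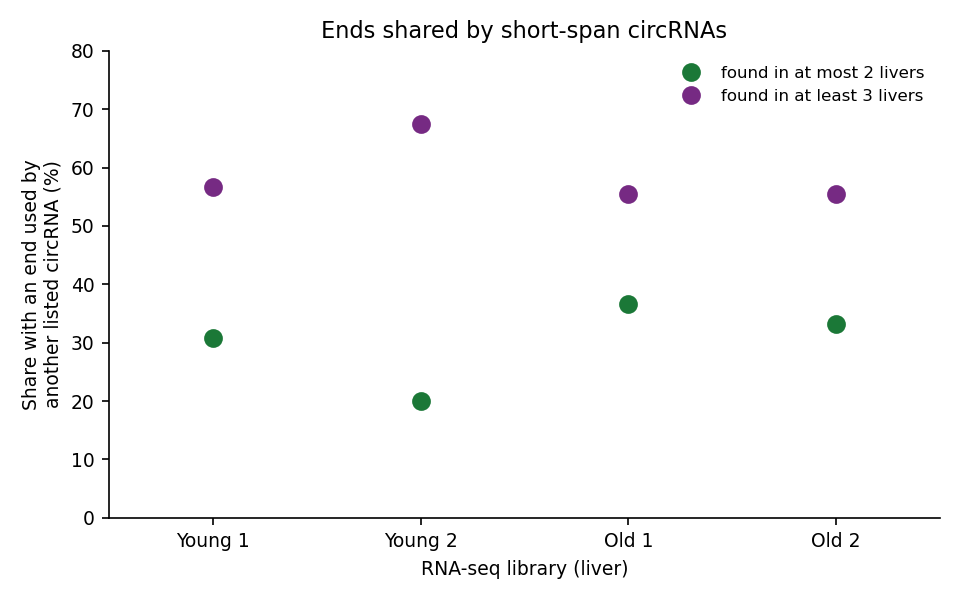
Share of short-span circRNAs with a start or end that another listed circRNA also uses (y axis, percent) in each library (x axis), for those found in at most 2 livers and those found in at least 3. The members lie between 20% and 36.7%, below the other set in all 4 libraries.

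Only 16 members (2.83%) shared an end with a circRNA found in all 4 livers. In the 5 examples with the most abundant partner, the partner was the longer circRNA. The partners were chosen as the most abundant circRNAs found in all 4 livers, so their higher reads and their presence at both ages follow from the choice. circRNA008382 (166 bases, chromosome 11, start 56283464) was found in young replicate 1 alone with 8 reads, and its partner circRNA008384, of 9197 bases with the same start, had 62, 282, 37 and 68 reads in young replicates 1 and 2 and old replicates 1 and 2. circRNA005035 (564 bases, chromosome 4, end 42012095) had 17 and 15 reads in the old livers and 0 in the young livers, while circRNA005032, of 10227 bases with the same end, had 79 and 67 reads in YL and 59 and 81 in OL. circRNA020048 (284 bases, chromosome 13, start 145222117) had 4 reads in each old liver, beside 42, 109, 51 and 125 reads of circRNA020049. circRNA013182 (702 bases, chromosome 2, start 142522061) had 17 and 7 reads in the old livers, beside 38, 49, 20 and 36 of circRNA013186. circRNA012379 (192 bases, chromosome 2, end 28878034) had 3 reads in old replicate 2, beside 22, 74, 27 and 112 of circRNA012370.

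Joining overlapping members gave 541 loci, of which 527 held a single member. The locus with the most was on chromosome 2 (78363340 to 78364055, minus strand), where 10 members of 687 to 715 bases shared a single end and had 10 different starts within 28 bases. Young replicate 1 had 2 of them with 10 reads in all, young replicate 2 had 0, old replicate 1 had 5 with 15 reads and old replicate 2 had 6 with 23 reads. Counted as a single circRNA this locus would have been found in 3 livers, and would not have been a member. On chromosome 14, 3 members (55035268 to 55035968, plus strand) shared a start and ended within 13 bases, with 6 reads in old replicate 1 and 2 in old replicate 2. On chromosome 16 (55770028 to 55770439, plus strand) 3 members of 409, 410 and 411 bases had 2, 2 and 4 reads, all in old replicate 1. Near-identical circRNAs, with an end in common and the other end within 30 bases, made up 31 members (5.49%), against 8 of the 75 short-span circRNAs in at least 3 livers (10.7%) and 12 of the 5133 longer ones (0.234%). After joining them, 546 groups held a member, of which 542 were found in at most 2 livers, and the ratio of old to young was 5.45.

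Chromosome 2 held the most members, 75 of 565 (13.3%), followed by chromosome 7 with 51 (9.03%) and chromosomes 6 and 14 with 43 each, whereas chromosome 1 held 41 members, 6.87% of its 597 listed circRNAs. Members were 15.2% of the 494 circRNAs of chromosome 2. Without the locus of 10 members, chromosome 2 still held 65 of 555 members (11.7%). Chromosome 2 took 10.8% and 10% of the members in YL and 14.3% and 14.4% of those in OL. The longer circRNAs found in at most 2 livers had between 5.74% and 7.79% on chromosome 2 per library, and the short-span circRNAs found in at least 3 livers had between 21.6% and 25%. The share of chromosome 2 was thus higher in short-span circRNAs of either kind in each of the 4 libraries, a description for which no test was run. Unplaced scaffolds held 24 members (4.25%), near the 3 of 75 (4%) of the short-span circRNAs found in at least 3 livers. The mean difference within libraries was 0.635 percentage points (exact sign-flip permutation p = 0.875), and it was -0.607 without young replicate 1. As for shared ends, the comparison set recurs from library to library, so the p of this test is a description only. By strand, 303 members were on the plus strand and 262 on the minus strand.

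A small group of members lay inside long non-coding RNA (lncRNA) loci. These were 14 members (2.48%) in 13 of the 3992 lncRNA loci that have a position. The same held for 3 of the 75 short-span circRNAs found in at least 3 livers (4%). Among the 5133 longer circRNAs found in at most 2 livers it held for 56 (1.09%). The exception with a pair of members was MSTRG.173427 (chromosome 8, 78935836 to 78936373), the second most abundant of 4028 lncRNAs in each library, with 12481 and 7201 CPM in YL and 18353 and 5915 CPM in OL. The deposited table gives no strand for this lncRNA. Altogether 4 listed circRNAs lay within it and shared an end at 78936223 on the minus strand, a set chosen for description after its values were seen. Their spans were 156 bases (circRNA020448), 195 bases (circRNA020447), 234 bases (circRNA020446) and 273 bases (circRNA020445), which are 4, 5, 6 and 7 times 39 bases. The circRNAs of 156 and 234 bases were found in all 4 livers, with 19, 6, 26 and 5 and with 23, 20, 49 and 8 reads. The members of 195 and 273 bases were found only in old replicate 1, with 6 and 10 reads. Old replicate 1 was also the library with the most junction reads over the set, 91 against 42 and 26 in young replicates 1 and 2 and 13 in old replicate 2, and the one with the highest level of the lncRNA.

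Proteins that guide back-splicing were examined at the mRNA level with a list of 28 formation factors, of which 20 were found by symbol. They include QKI, an RNA-binding protein that promotes circularisation, ADAR and ADARB1, enzymes that edit double-stranded RNA, DHX9, a helicase that unwinds paired introns, and general splicing factors. None of the 20 was called by limma at an adjusted p under 0.05 and a fold change above 2, where 0% of all 16898 tested mRNAs were called. At an unadjusted p under 0.05 there was 1, ADARB1, at 0.534 and 0.370 CPM in YL and 0.877 and 0.919 CPM in OL (log2 fold change 0.39, standard error 0.13, limma adjusted p = 0.312), which is 1 of 20 where 15.7% of all tested mRNAs had such a p. QKI was at 45.5 and 42.7 CPM in YL and at 48.9 and 28.0 CPM in OL, with overlapping ages. ADAR was at 1.34 and 2.35 CPM against 11.0 and 2.33 CPM, so that a single old library stood above the rest. With recovered whole reads, the exact test of edgeR called 545 mRNAs, and its quasi-likelihood test 0, but neither called a member of the list. Over the list, the log2 fold changes had a median of -0.12, beside -0.02 over all mRNAs tested, with 5 genes higher and 15 lower. This direction depended on the settings, since the median was 0.02 in both edgeR fits, with 12 genes higher and 8 lower beside 0.12 over all mRNAs, and 0.00310 without old replicate 2.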

How the data were processed

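Members and gene lists were chosen with earlier results of these data known. For the deposited files, the authors mapped reads with TopHat2 2.0.14 to the Sscrofa10.2 genome, assembled transcripts with StringTie 1.2.3 and predicted circRNAs with CIRCexplorer2 from at least 2 junction reads. The versions are those of the submitters' processing notes, which also name Salmon 0.6.0. The signal values of circRNAs were deposited as TPM by the authors, and how they were scaled is not given in the sources used here. With a step for each library, they came to whole numbers of junction reads to within 0.000521 read, and these reads were used for description only. Because the values are not counts, no count model was run on them. The deposited mRNA and lncRNA values, named TPM by the authors, carried no gene length and were taken as CPM. All of them (100%) were whole reads to within 0.1 read, and those reads went into edgeR as an alternative.

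Models were fitted with limma 3.58.1 and edgeR 4.0.16 in R 4.3.3. Other steps used scipy 1.17.1, pandas 2.3.3, numpy 2.4.6 and, for figures, matplotlib 3.10.9 in Python 3.11.15. Pseudocounts were 0.286 for circRNAs, the smallest value above 0, and 1 for mRNAs, and features above 0 in at least 2 libraries were tested. limma and edgeR were tested on simulated data. Fold changes on these scales understate those of low values. Libraries were compared with exact permutation tests, two-sided, over 2 young and 2 old samples, with no batch named in the labels. Symbols were matched for 11654 of 21607 mRNA identifiers. Named circRNAs were the 3 with the highest mean in each pattern of 2 livers, the 2 highest of each single liver (ties by shorter span), the 3 shortest, the 3 longest, those nearest the span limit, 5 with the most abundant partner in all 4 livers and the 3 loci with the most members. Positions are printed as deposited. Start and end may follow different conventions, which could shift a span by 1 base. Host genes, exons and sequences, and the small RNA libraries, were not analysed here. Replicate numbers did not pair the animals, which were 4 separate sows.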

Additional observations from a re-analysis of the deposited data

How the results depend on the processing

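Of 14 alternatives for the ratio of old to young members, 13 kept it above 1, between 1.14 and 7.23, and with at least 10 junction reads it was 0.776. Leaving out each library gave ratios from 4.45 to 7.23. The share of members among a library's circRNAs stayed higher in old livers under 10 alternatives (0.429 to 6.72 percentage points), and the median value stayed lower under 11 (log2 difference -2.34 to -0.65). That range ends at the value of at least 1, and it was -0.79 with junction reads scaled to listed mRNA and lncRNA reads. The share with a used end stayed lower in members under 10 alternatives. The difference in median span was -37.5 bases with a limit of 2000 bases and from 41.5 to 96.5 bases when a library was left out. That in unplaced scaffolds was -0.00897 percentage points with a limit of 2000 bases and -0.667 for members in exactly 1 liver, and from -0.607 to 1.35 when a library was left out. Members called higher by limma, 73 of 118, were 17 with a pseudocount of 1, 39 with all circRNAs tested, 21 and 147 with limits of 500 and 2000 bases, and 0 to 23 when a library was left out, where a lone library is assumed to vary like the others; the 0 arose without an old library, when the 83 members of both old livers could not be tested. Members called lower were 1 with a limit of 2000 bases and 0 to 6 when a library was left out. The cause of these shifts was not tested.

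Same-numbered libraries deviated with a correlation of -0.05 over circRNAs and 0.09 over mRNAs, so the numbers were not taken as pairing. With a replicate block, 15 of 118 members were called higher, beside 171 of all 1866 tested circRNAs. The ratio of old to young members was then 5.58 (exact sign-flip permutation p = 0.5, the smallest for 2 pairs). Limits at 5 and 10 reads, the joining of near-identical circRNAs and the scaling to listed reads were chosen after seeing the data. With 2 livers per age the exact permutation test over libraries cannot pass a threshold of 0.05, and a circRNA at 2 or 3 reads lies at the limit of detection.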
